A study of Sus scrofa with 20 samples.

Results

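EFEMP1 (fibulin-3, ENSSSCG00000008397), EFEMP2 (fibulin-4, ENSSSCG00000012971), FBLN5 (fibulin-5, ENSSSCG00000002444) and ECM1 (extracellular matrix protein 1, ENSSSCG00000029230) are 4 of the 21306 genes listed for all 20 boars. No listed value is below 1, so being listed does not show that a gene was detected in every boar. The 4 genes were taken by their Ensembl identifiers because they had been called higher at high sperm DNA fragmentation, EFEMP2 in both breeds and the other 3 in Duroc, in these same boars. The high against low difference is therefore a description, given without a test, for all 4 genes in Duroc and for EFEMP2 in Landrace. EFEMP1, FBLN5 and ECM1 were picked on the Duroc boars, so their DFI difference in Landrace was tested. They had not been reported for Landrace in these same boars, so a missing call there is no independent result. Breed differences use the same Duroc values as the choice of genes, and they are given as descriptions as well.

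Testis RNA was sequenced from AI boars of Norsvin Landrace (5 with low and 4 with high DFI) and Norsvin Duroc (5 low and 6 high), 1 library per boar. DFI, the sperm DNA fragmentation index in percent, was 0.62 to 1.70 in low and 5.58 to 8.04 in high Landrace boars, and 1.05 to 1.13 in low and 4.13 to 5.63 in high Duroc boars. All boars were fed the same diet and selected for extreme DFI, and no treatment is described. An age range at semen collection is given without saying whether it covers all boars measured or only the sequenced ones. No age is given for single boars. Testis pieces were taken at slaughter. The boars are named here LL1 to LL5 (Landrace low), LH1 to LH4 (Landrace high), DL1 to DL5 (Duroc low) and DH1 to DH6 (Duroc high), in the order of deposition. A run of consecutive sample numbers is carried by 6 Landrace boars (LL1, LL2 and LH1 to LH4), and by none of the other boars. No source used here explains the numbers.

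Fibulins are secreted glycoproteins built from calcium-binding EGF modules and a shared C-terminal module, and they connect elastic fibres and basement membranes to their neighbours. Fibulin-4 and fibulin-5 are both needed to assemble elastic fibres, since the first brings lysyl oxidase to tropoelastin and the second binds tropoelastin and integrins. Fibulin-3 is found in basement membranes and connective tissue, and ECM1 is a secreted glycoprotein that binds perlecan and fibulins. In the testis such matrix surrounds the seminiferous tubules and fills the interstitium, where Leydig cells and vessels lie.

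Between 18086448 (LH1) and 51782156 (LL5) reads per boar were counted on genes, and each of the other 19 libraries held at least 34527935. The 4 genes had 36 to 1178 reads per boar, and all 4 passed the filter on low counts in each breed. Levels are counts for each 1000000 counted reads (CPM), with the library totals scaled by the trimmed mean of M values over all 20 boars. As CPM ignores gene length, levels are compared between boars and not between genes. The markers of testis were found in every group. The spermatid gene PRM1 averaged 3890 to 4539 CPM, the Sertoli cell factor SOX9 29.4 to 34.3 CPM, and the androgen-producing enzyme CYP17A1 of Leydig cells 1553 to 3817 CPM over the 4 groups. Over the same groups the spermatid gene TNP1 averaged 3910 to 4666 CPM, the meiotic gene SYCP3 211 to 270 CPM and the endothelial gene PECAM1 19.7 to 35.5 CPM.

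EFEMP2, the fibulin that guides elastin cross-linking, was highest in boars of the high groups, in Landrace and in Duroc alike. The Landrace low boars LL1 to LL5 had 3.35, 4.07, 3.45, 5.24 and 4.25 CPM, and the high boars LH1 to LH4 had 7.13, 12.03, 9.15 and 7.57 CPM. All 4 high boars lay above all 5 low boars. The group means were 4.07 ± 0.76 (SD, n = 5) and 8.97 ± 2.22 CPM (SD, n = 4), a log2 fold change (logFC, high minus low) of 1.14 (SE 0.19). Within the 6 boars with consecutive numbers the logFC was 1.29.

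In Duroc the low boars DL1 to DL5 had 3.74, 4.51, 2.34, 5.87 and 6.61 CPM of EFEMP2, and the 6 high boars ran from 7.28 to 9.35 CPM with a median of 7.92. The groups did not overlap here either, and the high boars were closely spaced (8.22 ± 0.86 CPM, SD, n = 6) whereas the low boars were spread widely (4.61 ± 1.69 CPM, SD, n = 5). The logFC was 0.83 (SE 0.21). DL3 was the lowest boar of all 20.

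EFEMP1, the fibulin of basement membranes, separated the DFI groups in Duroc. The low boars DL1 to DL5 had 1.81, 4.07, 3.06, 2.07 and 4.00 CPM. The high boars ran from 4.31 to 9.02 CPM with a median of 4.97. All 6 high boars lay above all 5 low boars, by a margin of 4.31 against 4.07 CPM, and 2 of them, DH1 and DH4, reached 8.70 and 9.02 CPM while the other 4 stayed at or below 5.17. The means of 3.0 ± 1.05 (SD, n = 5) and 6.09 ± 2.17 CPM (SD, n = 6) gave a logFC of 1.02 (SE 0.28).

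Landrace boars overlapped for EFEMP1. The low boars LL1 to LL5 had 2.77, 2.34, 2.74, 4.29 and 2.57 CPM, and the high boars LH1 to LH4 had 4.81, 4.62, 3.01 and 2.66 CPM. LH1 and LH2 were above every low boar, and LH4 was below 3 of them. The logFC of 0.35 (SE 0.24) did not pass the edgeR quasi-likelihood test (adjusted p = 0.511, adjusted over all 14519 genes tested). It was 0.56 within the 6 boars with consecutive numbers, 0.22 without LH1 and 0.53 without LL4.

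FBLN5, the fibulin that tethers elastic fibres to cells, had the narrowest error of the 4 genes in Duroc. DL1 to DL5 had 8.19, 11.4, 13.8, 12.7 and 13.1 CPM, and the high boars had 14.4 to 23.9 CPM with a median of 21.7. The groups did not overlap, although DH6 at 14.4 CPM stood close to the low boar DL3 at 13.8. The means were 11.9 ± 2.23 (SD, n = 5) and 21.0 ± 3.42 CPM (SD, n = 6), with a logFC of 0.82 (SE 0.15).

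In Landrace the FBLN5 ranges of the DFI groups overlapped. LL1 to LL5 had 24.9, 15.2, 10.7, 19.1 and 18.3 CPM and LH1 to LH4 had 27.9, 27.4, 16.3 and 19.7 CPM. The low boar LL1 was above 2 of the 4 high boars, and LL2 and LL3 were below all of them. High minus low gave a logFC of 0.37 (SE 0.23), which did not pass the edgeR quasi-likelihood test (adjusted p = 0.475). It fell to 0.19 within the 6 boars with consecutive numbers and to 0.24 without LL3, the lowest boar.

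ECM1, the binding partner of perlecan and fibulins, was the only one of the 4 genes whose DFI groups overlapped in both breeds. DL1 to DL5 had 2.13, 3.64, 0.993, 2.19 and 2.88 CPM, and the Duroc high boars had 2.57 to 6.34 CPM with a median of 4.85. DH5, the lowest high boar, lay below DL2 and DL5, and the other 5 high boars lay above every low boar. The means were 2.37 ± 0.98 (SD, n = 5) and 4.77 ± 1.36 CPM (SD, n = 6), and the logFC was 1.0 (SE 0.30).

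The Landrace low boars LL1 to LL5 had 2.14, 2.55, 1.49, 3.18 and 2.12 CPM of ECM1, and LH1 to LH4 had 4.26, 6.25, 2.73 and 3.07 CPM. LH3 and LH4 were below LL4 and above the other 4 low boars. At a logFC of 0.83 (SE 0.28) the difference did not pass the edgeR quasi-likelihood test, whose p was 0.0122 before and 0.159 after adjustment. The exact two-sided permutation test on log2 CPM (0.5 CPM added) gave p = 0.0397 over 126 splits. Without LH2, the boar with the most ECM1, the logFC was 0.53. The same exact test gave p = 0.19 for EFEMP1 and 0.198 for FBLN5 in Landrace.

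**Figure D1:**
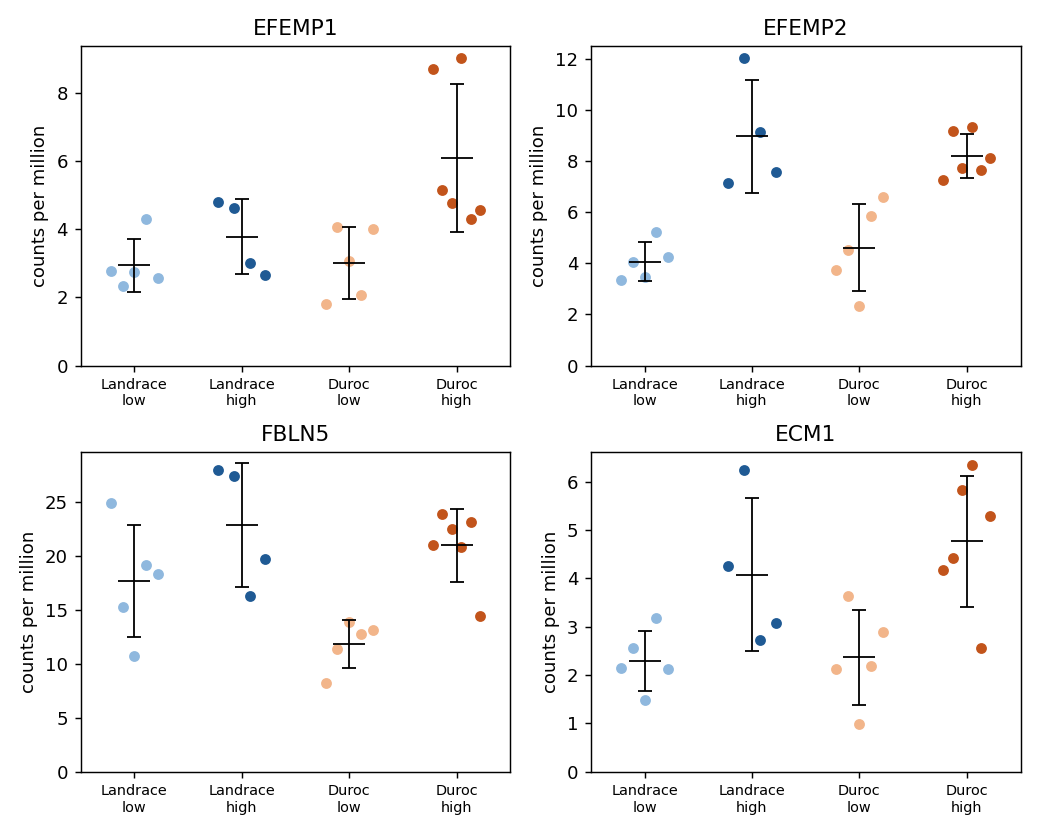
Level of each gene (y axis, CPM) in each boar (points) by breed and DFI group (x axis), with the group mean and SD in black. High boars lay above all low boars for EFEMP2 in both breeds and for EFEMP1 and FBLN5 in Duroc, and the groups overlapped elsewhere.

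The DFI groups did not overlap, with high above low, for 3 of the 4 genes in Duroc and for 1 in Landrace. Of all genes tested, 2.02% separated that way in Duroc and 4.41% in Landrace, and nothing is read from the members' counts, since the members were picked on these differences. No gene passed the adjusted threshold of 0.05 in Landrace by the edgeR quasi-likelihood test (0% of 14519 genes), while 2417 genes (16.6%) had an unadjusted p under 0.05, ECM1 among EFEMP1, FBLN5 and ECM1. By the edgeR likelihood ratio test 767 genes (5.28%), by DESeq2 842 genes and by limma voom 1 gene passed in Landrace, and EFEMP1, FBLN5 and ECM1 were not among them by any of these tools. In Duroc 2 genes (0.0136%) passed by the quasi-likelihood test and 376 (2.56%) by the likelihood ratio test, the method the study used. The study's own run of that method called fewer genes in Landrace than the 767 found here. The calls of the 4 genes in Duroc were fixed by the choice of genes and are not counted. The study had not reported EFEMP1, FBLN5 and ECM1 for Landrace, so that their missing calls there are no independent result.

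The Duroc logFC minus the Landrace logFC was 0.67 (SE 0.39) for EFEMP1, 0.46 (SE 0.29) for FBLN5, 0.18 (SE 0.43) for ECM1 and -0.31 (SE 0.30) for EFEMP2. These differences hold the contrast on which the genes were picked and were not tested. That a gene separated the groups in one breed and not in the other is thus not shown to be a difference between breeds.

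Duroc was compared with Landrace separately at low and at high DFI, in 1 model over the 20 boars. Since the genes were picked for Duroc high boars above Duroc low boars, that choice favours low values in the one group and high values in the other, and no p is given for them. In both comparisons the values of all 4 genes overlapped between breeds.

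At low DFI the mean of FBLN5 was lower in Duroc than in Landrace, at 11.9 ± 2.23 against 17.7 ± 5.21 CPM (SD, n = 5 each), with a logFC of -0.58 (SE 0.20). The Landrace boar LL3, at 10.7 CPM, was the only one of its group within the Duroc range of 8.19 to 13.8 CPM. The logFC was -0.71 without LL3 and -0.44 without LL1 and LL2, the low boars with consecutive numbers. At high DFI the breeds had 21.0 ± 3.42 (SD, n = 6) and 22.8 ± 5.75 CPM (SD, n = 4), a logFC of -0.12 (SE 0.20).

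EFEMP1 showed its larger breed difference at high DFI. Duroc high boars had 6.09 ± 2.17 CPM (SD, n = 6) and Landrace high boars 3.78 ± 1.10 CPM (SD, n = 4). The logFC was 0.70 (SE 0.28). All Landrace high boars carry consecutive sample numbers and no Duroc boar does, so that breed and number series cannot be told apart here. At low DFI the breeds had 2.94 ± 0.77 and 3.0 ± 1.05 CPM (SD, n = 5 each), a logFC of 0.03 (SE 0.27).

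For EFEMP2 and ECM1 every breed logFC was smaller than its SE. That of EFEMP2 was 0.18 (SE 0.21) at low and -0.13 (SE 0.21) at high DFI. That of ECM1 was 0.05 (SE 0.31) at low and 0.23 (SE 0.31) at high DFI. By group mean, the order from low to high was Landrace low, Duroc low, Duroc high and Landrace high for EFEMP2, and Landrace low, Duroc low, Landrace high and Duroc high for EFEMP1 and ECM1. FBLN5 differed in its order, as the Duroc low boars were lowest, followed by Landrace low, Duroc high and Landrace high. Neighbours in these orders overlapped wherever they belonged to the same DFI group.

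**Figure D2:**
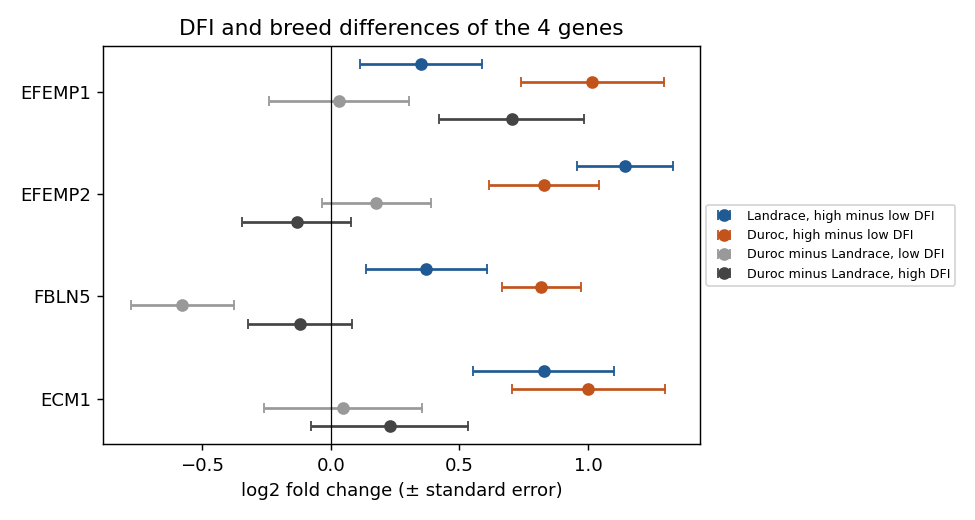
Log2 fold change with its standard error (x axis) of the 4 genes (y axis) for high minus low DFI in Landrace and in Duroc and for Duroc minus Landrace at low and at high DFI. The DFI differences are all above 0, from 0.35 to 1.14, and the breed differences lie between -0.58 and 0.70.

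Whether the 4 genes moved together from boar to boar was examined on deviations of log2 CPM from the mean of each breed and DFI group, which leave out the differences the genes were picked on. EFEMP2 and ECM1 moved together most closely. Their Pearson r was 0.65 and Spearman's rho 0.579 over 20 boars, with permutation p of 0.00968 and 0.0205, and 0.0581 and 0.123 after adjustment over the 6 pairs. The r was 0.679 in Landrace and 0.637 in Duroc alone, 0.488 without DL3 and DL5 (the boars farthest from the median of EFEMP2) and 0.46 without DL3. DL3 was lowest in both genes, and LH2 was the highest Landrace boar in both.

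EFEMP1 and ECM1 had an r of 0.479 and a rho of 0.392 (permutation p = 0.0627 and 0.119, adjusted 0.188 and 0.238), and an r of 0.496 without DH4 and DH1. The 2 elastic fibre fibulins EFEMP2 and FBLN5 had the lowest r of the 6 pairs, 0.097, with a rho of 0.06 (permutation p = 0.699 and 0.823, and r = 0.227 without DL3 and DL5). For FBLN5 and ECM1 the r was 0.678 in Landrace and -0.281 in Duroc, and 0.182 over all boars (rho 0.147, permutation p = 0.458 and 0.575, and r = 0.12 without LL3 and DH6). EFEMP1 had an r of 0.384 with FBLN5 (rho 0.364, permutation p = 0.101 and 0.118) and of 0.227 with EFEMP2 (rho 0.238, permutation p = 0.425 and 0.35). Without DH4 and DH1 these were 0.442 and 0.258. No pair passed a threshold of 0.05 after adjustment.

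Each gene had its own nearest genes among the 9573 with a symbol, by Pearson r of the same deviations over 20 boars. EFEMP2 was most like FDXR, the mitochondrial reductase that passes electrons to steroid-making P450 enzymes (r = 0.951, rho = 0.938), the tetraspanin gene TSPAN4 (r = 0.947) and the tetraspanin gene CD82 (r = 0.947). These were within 0.915 to 0.969 in each breed and at 0.894 or more without the 2 boars farthest from the median of EFEMP2. ECM1 was most like OSMR, the oncostatin M receptor (r = 0.907), the adaptor gene GRB14 (r = 0.847) and the annexin gene ANXA5 (r = 0.834).

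EFEMP1 was most like PRKD1, a protein kinase D (r = 0.791), COL1A2, a chain of type I collagen (r = 0.777), and IGFBP6, which binds insulin-like growth factors (r = 0.742). FBLN5 had looser neighbours, TSACC (r = 0.743), ASPHD2 (r = 0.743) and SRI, the calcium-binding sorcin (r = 0.737). Some of these were less even between breeds, at 0.393 in Landrace and 0.874 in Duroc for IGFBP6 and at 0.874 and 0.495 for SRI. The neighbours of ECM1 had an r of 0.831 to 0.919 in each breed. Over all 14635 other genes, 85 had an r above 0.8 with EFEMP2, 19 with ECM1, 1 with EFEMP1 and 0 with FBLN5. An r below -0.8 was found for 40, 29, 1 and 0 genes, and the median r lay between 0.001 and 0.02. The highest r of many is large by choice, and the genes share libraries, so these values are descriptions.

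**Figure D3:**
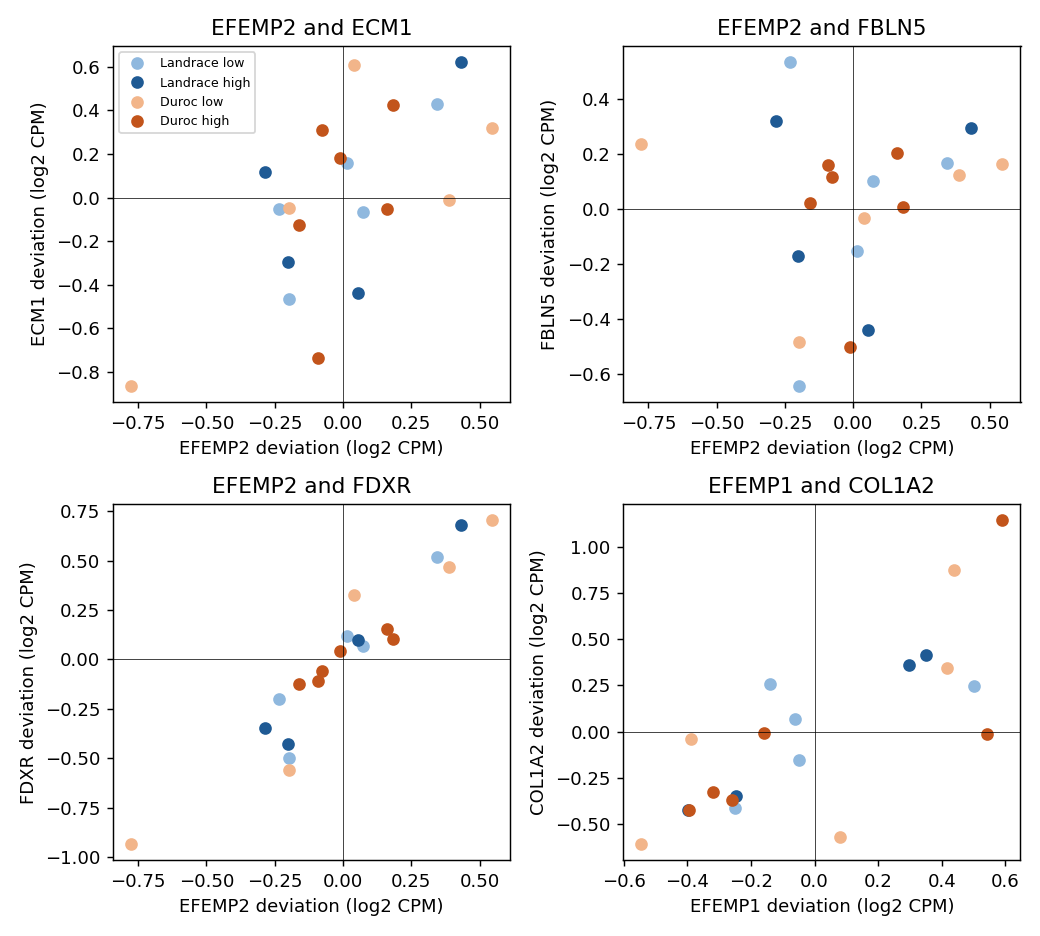
Deviation of log2 CPM from the mean of the boar's own breed and DFI group for pairs of genes (both axes), 1 point per boar, coloured by group. EFEMP2 and FDXR lie along a line (r = 0.951), EFEMP2 and ECM1 and EFEMP1 and COL1A2 are looser (r = 0.65 and 0.777), and EFEMP2 and FBLN5 show no line (r = 0.097).

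Markers of several testis cell types were set beside the DFI groups. All 4 Leydig cell markers with a count (CYP11A1, CYP17A1, INSL3 and LHCGR) had a logFC above 0 in both breeds, with a median of 1.27 in Landrace and 0.88 in Duroc against -0.01 and 0.01 over all genes. None of them passed the adjusted threshold by the edgeR quasi-likelihood test. In Landrace and Duroc 4 and 2 had an unadjusted p under 0.05 (16.6% and 21.2% of all genes). By the likelihood ratio test 4 and 2 passed (5.28% and 2.56% of all genes). Their summed level was 1240 to 4110 CPM in Landrace low, 4490 to 12000 CPM in Landrace high, 786 to 5940 CPM in Duroc low and 3320 to 7010 CPM in Duroc high boars. No marker was at the lowest listed value in every boar, and STAR and HSD3B1 were not matched to a count.

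The markers of germ cells had the other sign. The spermatid markers, all 8 of them, had a logFC below 0 in both breeds (median -0.18 in Landrace and -0.29 in Duroc). None was past the adjusted threshold in the edgeR quasi-likelihood test, and 3 and 6 had an unadjusted p under 0.05 (16.6% and 21.2% of all genes). Their summed level was 13500 to 17600 CPM in Landrace low, 11800 to 15800 in Landrace high, 14200 to 18700 in Duroc low and 10500 to 15000 in Duroc high boars. In bulk tissue, fewer cells of a type and less RNA per cell cannot be told apart, and the part of cell composition in the levels of the 4 genes was not tested.

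Summed fibroblast markers (PDGFRA, DCN, LUM and COL1A2) were at 75.5 to 123 and 122 to 182 CPM in Landrace low and high boars and at 81.8 to 145 and 106 to 226 CPM in Duroc low and high boars. The 5 markers of peritubular myoid and smooth muscle cells summed to 78.7 to 154 and 151 to 256 CPM in Landrace, where all 5 had an unadjusted p under 0.05 (ACTA2 and MYH11 among them), and to 94.9 to 185 and 118 to 244 CPM in Duroc. Of 3 endothelial markers all had a logFC above 0 in both breeds (sums of 27.5 to 48.4 and 38.9 to 91.2 CPM in Landrace, 23.8 to 62.5 and 49.0 to 80.6 CPM in Duroc). The summed levels of the 4 macrophage markers (53.6 to 76.0 against 56.5 to 74.6 CPM in Landrace, 39.9 to 59.0 against 45.2 to 82.0 CPM in Duroc) and of the 6 Sertoli cell markers (1680 to 2170 against 1460 to 1990 CPM, and 1940 to 2440 against 1970 to 3440 CPM) overlapped between DFI groups, as did the fibroblast, myoid and endothelial sums. The Sertoli cell sum was mostly CLU (1557 to 2167 CPM by group mean), and the macrophage sum was mostly MRC1 (46.7 to 65.0 CPM by group mean). Of the other macrophage markers, CSF1R and CD14 were named after their values were seen. Their logFC was 1.34 and 1.25 in Landrace (likelihood ratio adjusted p = 0.0209 and 0.0139, edgeR). In Duroc it was 0.86 and 0.36 (likelihood ratio adjusted p = 0.0292 and 0.621, edgeR). CSF1R lay close to the filter of 1 CPM in the low groups, with means of 0.76 CPM in Landrace and 1.02 CPM in Duroc. CD68 had a logFC of 0.09 in Landrace and 0.13 in Duroc (likelihood ratio adjusted p = 0.968 and 0.818, edgeR). For MRC1 the logFC was -0.08 and 0.19 (0.905 and 0.579). The 4 spermatocyte markers, all with a logFC below 0 in both breeds, summed to 793 to 896 against 725 to 826 CPM in Landrace and 756 to 812 against 671 to 746 CPM in Duroc. None of the 38 markers passed the adjusted threshold between DFI groups (edgeR quasi-likelihood test), while 17 higher and 6 lower in Landrace and 7 and 7 in Duroc had an unadjusted p under 0.05, and 12 and 4 passed by the likelihood ratio test. Of all genes, 16.6% in Landrace and 21.2% in Duroc had an unadjusted p under 0.05. The likelihood ratio test passed 5.28% and 2.56% of all genes. Between breeds GATA4 passed at low DFI and GATA4 and CLU, both Sertoli cell markers named after their values were seen, passed at high DFI, higher in Duroc (adjusted p = 0.000263, 0.00449 and 0.0464, edgeR).

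Within groups, each of the 4 genes was set against the summed markers of 8 cell types. The highest r of EFEMP2 was with the summed Leydig cell markers (r = 0.724, rho = 0.669, permutation p = 0.00949 and 0.00908, adjusted 0.128 and 0.145 over 32 relations), with r = 0.827 in Landrace, 0.677 in Duroc and 0.516 without DL3 and DL4. That of ECM1 was with the myoid and smooth muscle markers (r = 0.647, rho = 0.681, permutation p = 0.00635 and 0.00348, adjusted 0.128 and 0.111), with r = 0.661 without DL5 and DH6, and 0.761 and 0.58 within Landrace and Duroc. ECM1 also had an r of 0.6 with the Leydig cell markers (rho 0.535, permutation p = 0.016 and 0.0304, adjusted 0.128 and 0.241), and of 0.53 without DL3 and DL4. Both EFEMP2 and ECM1 also had an r above 0 with the summed markers of other cell types. Which cells their RNA came from was not tested. EFEMP2 had an r of 0.594 with endothelial, 0.532 with myoid and 0.516 with fibroblast markers (permutation p = 0.0398, 0.0264 and 0.0349, each adjusted 0.159). With endothelial and macrophage markers ECM1 had an r of 0.543 and 0.493 (permutation p = 0.037 and 0.046, adjusted 0.159 and 0.164). EFEMP2 and the summed spermatid markers had an r of -0.985 in Landrace and of -0.05 in Duroc (-0.391 over all boars, rho -0.496, permutation p = 0.108 and 0.0463, adjusted 0.288 and 0.241), so that the relation did not hold within Duroc.

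EFEMP1 had an r of 0.605 with the fibroblast markers (rho 0.51, permutation p = 0.0141 and 0.0409, adjusted 0.128 and 0.241), which was 0.42 in Landrace, 0.683 in Duroc and 0.449 without DH4 and DL5, and an r of 0.004 with the Leydig cell markers (rho -0.012, permutation p = 0.988 and 0.965). COL1A2 is both one of the 4 fibroblast markers and one of the nearest genes of EFEMP1. FBLN5 had its highest r, 0.328, with the spermatocyte markers (rho 0.317, permutation p = 0.243 and 0.246), and it was 0.066 without LH1 and LL3. None of the 32 relations passed 0.05 after adjustment, and that these relations differ between the 4 genes was not tested.

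**Figure D4:**
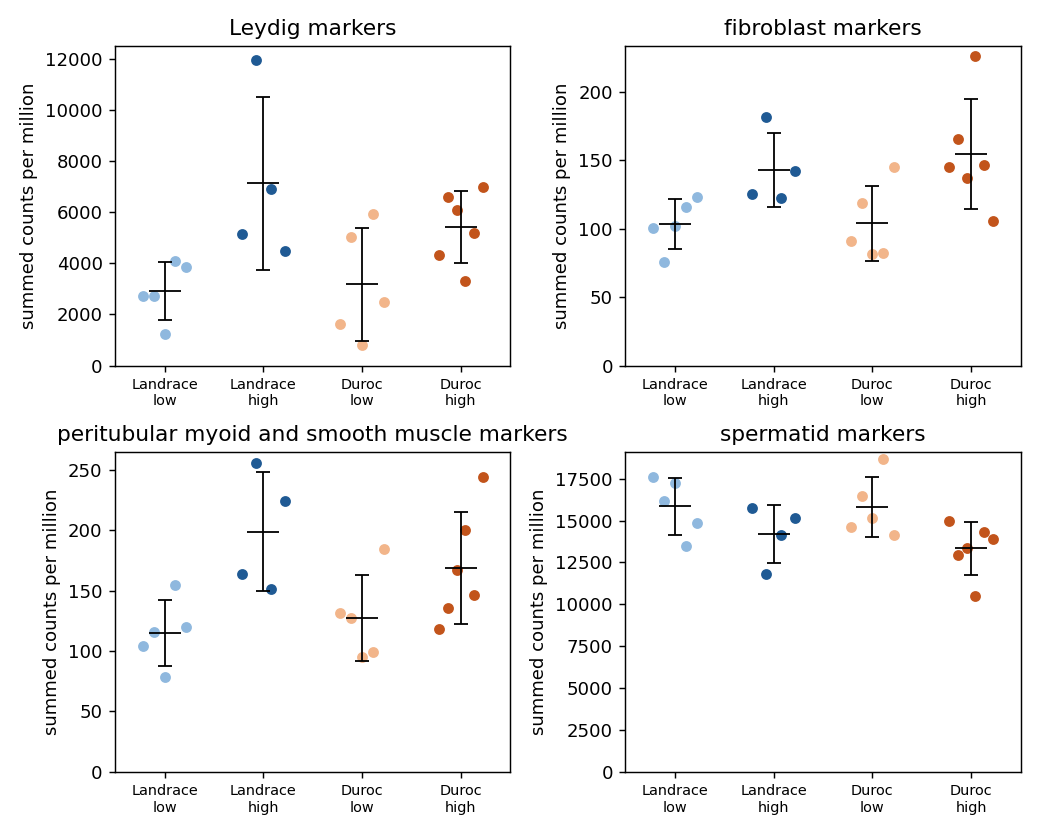
Summed level of the markers of 4 cell types (y axis, summed CPM) in each boar (points) by breed and DFI group (x axis), with the group mean and SD in black. Leydig cell markers reached 4490 to 12000 CPM in Landrace high against 1240 to 4110 CPM in Landrace low boars, and spermatid markers were lower on average in high than in low boars of both breeds.

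The wider network of the fibulins was followed in a list of 39 genes, of which 32 had a count and 28 were tested in Landrace and 29 in Duroc. Most list genes had a logFC above 0 at high DFI, 22 of 28 in Landrace (median 0.52 against -0.01 over all genes) and 25 of 29 in Duroc (median 0.36 against 0.01), where 47.3% and 51.8% of all genes had one. None passed the adjusted threshold in the edgeR quasi-likelihood test. In each breed 14 had an unadjusted p under 0.05, all higher at high DFI, where 16.6% of all genes were reached in Landrace and 21.2% in Duroc. The likelihood ratio test called 8 and 6 of the list in Landrace and Duroc (5.28% and 2.56% of all genes). DESeq2 called 8 and 7, against 842 of 14519 and 869 of 14666 genes in all. By limma voom 0 and 0 of the list passed, against 1 and 67 of all genes.

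Among the other fibulins, FBLN2, a basement membrane fibulin, had 7.01 ± 1.74 and 13.9 ± 8.23 CPM (SD) in 5 low and 4 high Landrace boars (logFC 1.0, SE 0.31, adjusted p = 0.14, edgeR) and 10.9 ± 3.37 and 17.5 ± 3.72 CPM (SD) in 5 low and 6 high Duroc boars (logFC 0.68, SE 0.20, adjusted p = 0.127). FBLN1, which binds fibronectin and laminin networks, had a logFC of 0.28 (SE 0.26, adjusted p = 0.649) in Landrace and of 0.53 (SE 0.14, adjusted p = 0.115) in Duroc (edgeR quasi-likelihood test). FBLN2 passed the likelihood ratio test in both breeds (adjusted p = 0.0166 and 0.0313, edgeR), and FBLN1 in neither. LH2, at 26.2 CPM, was far above the Landrace high median of 10.3 CPM of FBLN2, and without it the Landrace logFC was 0.50 for FBLN2 and 0.03 for FBLN1. The third gene of the family with a test, the hemicentin HMCN2, named after its values were seen, had a logFC of 0.83 (SE 0.74, adjusted p = 0.635) in Landrace and -0.52 (SE 0.39, adjusted p = 0.463, edgeR) in Duroc.

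The RNA of genes for the proteins that fibulins join was measured in the same boars. ELN, the elastin gene itself, had a logFC of 0.63 (SE 0.19, adjusted p = 0.134) in Landrace and 0.55 (SE 0.19, adjusted p = 0.144) in Duroc in the edgeR quasi-likelihood test. FBN1, the scaffold of microfibrils, had 0.49 (SE 0.18, adjusted p = 0.212) and 0.66 (SE 0.21, adjusted p = 0.134, edgeR), and 0.29 in Landrace without LH1. Of the 8 elastic fibre and microfibril genes tested, 7 in Landrace and 8 in Duroc had a logFC above 0, with medians of 0.61 and 0.59.

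Of the 4 cross-linking genes tested, 1 in Landrace and 3 in Duroc had a logFC above 0. LOX, the lysyl oxidase that fibulin-4 binds, had a logFC of -0.15 (SE 0.12, adjusted p = 0.605) in Landrace and 0.09 (SE 0.10, adjusted p = 0.649) in Duroc (edgeR quasi-likelihood test). Its group means lay between 11.95 and 13.53 CPM. LOXL1, which acts with fibulin-5, had -0.17 (SE 0.17, adjusted p = 0.672) in Landrace and 0.00 (SE 0.22, adjusted p = 0.999) in Duroc. The 4 genes had median logFC of -0.16 and 0.04, and that they differ from the elastic fibre genes was not tested.

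Of the matrix partners, 7 of 9 tested in Landrace and 9 of 10 in Duroc had a logFC above 0 (medians 0.55 and 0.37), and of the integrins 4 of 4 and 3 of 4 (medians 0.45 and 0.37). Between breeds, 0 of 29 list genes passed at low or at high DFI in the edgeR quasi-likelihood test, with 6 at low DFI (all higher in Duroc) and 5 at high DFI (4 higher and 1 lower in Duroc) at an unadjusted p under 0.05. Of all 14636 genes, 4.92% and 5.73% passed at low and at high DFI, and 18.8% and 23.0% had an unadjusted p under 0.05, so that the list's counts were near those of all genes. By the likelihood ratio test 2 passed at low and 0 at high DFI (5.27% and 5.71% of all genes). By DESeq2 1 and 1 passed, against 1095 and 1377 of all 14636 genes. By limma voom 1 and 0 passed, against 1195 and 797 of all 14636 genes.

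**Figure D5:**
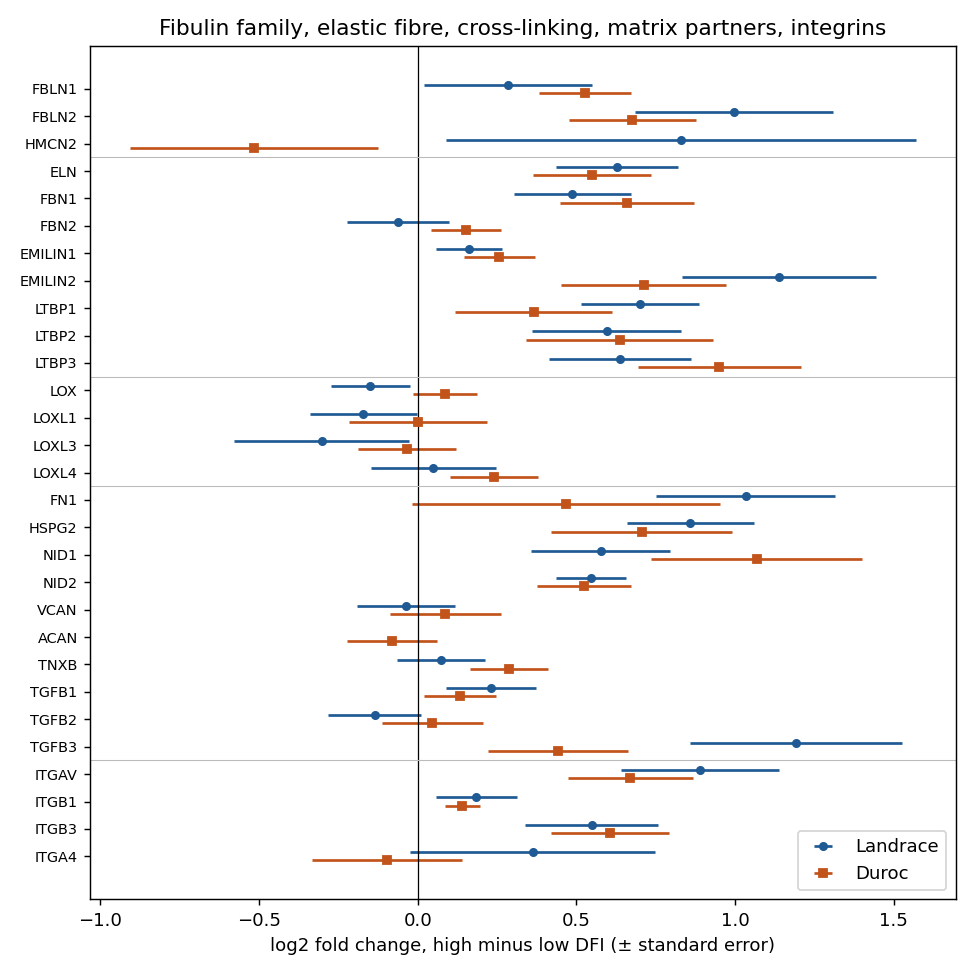
Log2 fold change of high minus low DFI with its standard error (x axis) for each tested gene of the list (y axis) in Landrace and in Duroc, in blocks from top to bottom of the other fibulins, elastic fibre and microfibril genes, cross-linking enzymes, matrix partners and integrins. Most points are above 0, and the 4 cross-linking genes lie around 0, with medians of -0.16 and 0.04.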

How the data were processed

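RNA-seq of testis from 20 boars was analysed. The deposited values are raw read counts per Ensembl gene. The authors mapped 50 basepair single end reads of non-stranded TruSeq libraries to Sus scrofa build 10.2 with TopHat 2.0.12 and counted them with HTSeq without strand, so that reads of overlapping genes on opposite strands cannot be told apart. No deposited count is below 1, and whether 0 was replaced is not stated. A build 10.2 annotation was not used here. The lowest count of the 4 genes was 36 reads.

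Counts were fitted in R 4.3.3 with edgeR 4.0.16 (trimmed mean of M values, quasi-likelihood F-test, Benjamini-Hochberg adjustment over all genes kept). Genes above 1 CPM in at least 5 of 9 Landrace or 6 of 11 Duroc boars were kept for DFI within breed, and in at least 10 of 20 boars for breed within DFI group. SE is the logFC divided by the square root of F. Deviations from group means were permuted within groups 100000 times. DFI was taken from the sample labels, which differ from the study's own table for some Landrace boars. The breed tests of the 4 genes were run as planned, but their p-values are not given, since the Duroc values entered the choice of genes. Scripts were tested on simulated data.

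The 4 genes, the lists and the tests were chosen with earlier results of these data known. Named genes were the 4 members, 7 genes of the list (LTBP4 was not matched), list genes past the adjusted threshold between breeds (none), defining markers, and the 3 genes most like each member. The named markers STAR and CD163 were not matched either. Symbols came from a table of Ensembl names, which matched 32 of 39 list genes and 38 of 49 markers. Alternatives were the likelihood ratio test with tagwise dispersion (the method of the authors), DESeq2 1.42.0, limma 3.58.1 voom with sample weights, median-of-ratios (RLE) normalization, no filter or at least 10 counts in every boar, a joint fit, DFI as a continuous covariate, sample number series, 0.1 or 2 CPM added, library size without scaling factors, a threshold of 0.10, and each boar left out.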

Additional observations from a re-analysis of the deposited data

Results flagged for a closer look

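In 2 of 16 combinations of gene and group, 1 boar stood apart from the rest of its group by Dixon's criterion, which chance alone meets in about 1 of 20 groups. LL4 had 4.29 CPM of EFEMP1, against 2.34 to 2.77 CPM in the other Landrace low boars, and without it the Landrace logFC of EFEMP1 was 0.53. DH6 had 14.4 CPM of FBLN5, against 20.8 to 23.9 CPM in the other Duroc high boars, and without it the Duroc logFC was 0.91.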

How the results depend on the processing

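No paired analysis was run, since each boar was a different animal in a single breed and DFI group and the labels give no pairs. With LL2, LL5, DL2 or DL5 left out the breed difference of EFEMP1 at low DFI turned sign, with a range of -0.11 to 0.21, and it was -0.09 without LL1 and LL2 and -0.13 in limma voom. That of ECM1 at low DFI ran from -0.16 to 0.24 (below 0 without LL3, DL2 or DL5) and was -0.03 in limma voom. That of FBLN5 at low DFI ran from -0.71 to -0.42 and was -0.72 in limma voom. At high DFI that of EFEMP2 ran from -0.21 to 0.04 (above 0 without LH2), and that of FBLN5 was 0.00 in limma voom. The difference of the DFI effects of ECM1 ran from -0.01 (without DL3) to 0.48. The r of EFEMP2 and ECM1 ran from 0.46 (without DL3, permutation p = 0.0668) to 0.69 and was 0.68 in Landrace and 0.64 in Duroc (permutation p = 0.0872 and 0.075, unadjusted). That of EFEMP1 and ECM1 ran from 0.41 to 0.60 and was 0.51 (permutation p = 0.0449) without scaling factors. Its unadjusted permutation p was under 0.05 without LL2, DL3, DH1 or DH3. That of FBLN5 and ECM1 was -0.28 in Duroc. Of the list, 0 genes were called by the main test. With a threshold of 0.10 there was 1 in Landrace, 1 between breeds at low and 1 at high DFI. The likelihood ratio test called 8 in Landrace, 6 in Duroc and 2 between breeds at low DFI, DESeq2 8, 7 and 1, with 1 at high DFI, and limma voom 1 at low DFI. The DESeq2 and limma voom counts, and all alternatives for EFEMP2 in Landrace, and the fits of 6 list genes without each boar were added after the data had been seen. In these the Duroc logFC of LOXL1 ran from -0.11 to 0.20 and turned sign without DL2, DL3, DH3, DH4 or DH5. The DFI logFC of the 4 genes kept their sign under every alternative run in both breeds, and EFEMP1, FBLN5 and ECM1 stayed short of the threshold in Landrace, where limma voom gave 0.18 for EFEMP1 and 0.21 for FBLN5. Over all genes, the quasi-likelihood, likelihood ratio, DESeq2 and limma voom tests called 0, 767, 842 and 1 in Landrace, 2, 376, 869 and 67 in Duroc, 720, 772, 1095 and 1195 between breeds at low DFI, and 838, 835, 1377 and 797 at high DFI. The causes of these shifts were not tested. LH1 was the smallest library, and its part in the spread of the Landrace high group was not tested.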

Other observations

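Outside the genes named by rule, HMCN2 and LOXL4 were chosen after their values were seen. HMCN2, a hemicentin of the fibulin family, had 9.46 ± 3.85 CPM in Duroc low and 2.22 ± 2.32 CPM in Landrace low boars (SD, n = 5 each), a logFC of 2.09 (SE 0.62). It had an adjusted p of 0.0579 in the edgeR quasi-likelihood test and 0.00672 in the likelihood ratio test. LL4, at 6.35 CPM, was the highest Landrace low boar and lay within the Duroc low range of 5.41 to 14.6 CPM. At high DFI its breed logFC was 0.74 (SE 0.62, adjusted p = 0.515, edgeR). LOXL4, a lysyl oxidase, was higher in Duroc at high DFI by a logFC of 0.54 (SE 0.17, adjusted p = 0.0561, edgeR quasi-likelihood test).

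DH4, the boar with the most EFEMP1, EFEMP2 and ECM1 among Duroc boars, also had the highest summed Sertoli cell (3440 CPM), fibroblast (226 CPM) and macrophage (82.0 CPM) markers and the lowest summed spermatid markers (10500 CPM) of the 20 boars. Its Sertoli cell sum was mostly CLU (3255 CPM) and its macrophage sum mostly MRC1 (75.9 CPM). DL3, the lowest of the 20 boars in EFEMP2 and ECM1, had the lowest summed Leydig cell (786 CPM), endothelial (23.8 CPM) and macrophage (39.9 CPM) markers. LH2, the highest of the 20 boars in EFEMP2, had the highest summed Leydig cell (12000 CPM) and endothelial (91.2 CPM) markers. The part of these levels in the values of the 4 genes was not tested.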
